A study of Mus musculus with 4 samples.

Results

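The serpins are described here in primary cultured mouse mesenchymal stromal cells (MSCs) in which Islr, the gene of the surface and secreted protein Meflin, was knocked down. Members were all non-control probes of the array whose transcript accession belongs to a RefSeq gene with a symbol starting Serpin: 75 probes of 55681, for 60 genes of the 21154 genes that could be named. RefSeq holds 69 mouse Serpin genes, and those without a matched probe, among them Serpina1b, Serpina3g, Serpinb9h and Serpine3, were not analysed here. A probe of 36 of the 60 genes was well above background on at least 1 array, and of 26 genes on all 4.

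Total RNA of the cells at passage 5 was labelled with Cy3 and hybridised to 4 one-colour Agilent arrays. All cells carried a retroviral short hairpin RNA: 1 array held the control hairpin (shControl), and the other 3 held cells with a hairpin against Islr, each with another target sequence (shIslr; hairpins 1, 2 and 3 below, as numbered in the labels). The strain, age and sex of the mice are not given in the sources used here, nor whether the cultures were started separately, so the spread over hairpins is that between 3 target sequences in what may be 1 culture. The study addressed the effect of losing Meflin on expression throughout the genome.

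Serpins are a superfamily of proteins with 1 common fold, most of which block proteases. The protease cuts an exposed loop of the serpin, the loop snaps into the body of the protein, and the protease is trapped and destroyed with it. Members are sorted by sequence into clades named with letters: clade a are mostly secreted proteins of plasma, clade b act mostly inside cells, and smaller clades hold antithrombin (c), heparin cofactor II (d), protease nexin-1 (e), pigment epithelium-derived factor (f), C1 inhibitor (g), the collagen chaperone Hsp47 (h) and neuroserpin (i). In rodents clades a and b hold arrays of recently duplicated genes that lie side by side, among them the Serpina3, Serpinb1, Serpinb6 and Serpinb9 groups.

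Islr itself read 454 with the control hairpin and 11, 70.5 and 3.44 with hairpins 1 to 3. The probe was not well above background on hairpins 1 and 3, where the drop was at least 20.5-fold (hairpin 1) and at least 29.6-fold (hairpin 3), and it was 6.33-fold lower on hairpin 2. The share of features above background ran from 49.4% to 53.8% by array, the highest being that of hairpin 3, and Serpin probes numbered 32, 35, 33 and 43 above background on the control and hairpins 1 to 3. The lowest signal called above background was 19.3 on the control and 20.8, 19.1 and 15 on hairpins 1 to 3. A dim probe could therefore be called on hairpin 3 alone without a higher signal there. The share of all probes called on hairpin 3 alone was not counted. All 11 MSC markers checked were above background on all 4 arrays, with summed signals of 211212, 168180, 199594 and 157960 on the control and hairpins 1 to 3. The median difference of these markers was 0.06, 0.02 and 0.24 on hairpins 1 to 3. Their levels differed between arrays: Pdgfra was at -0.10, -1.15 and -1.17 on hairpins 1 to 3 and Thy1 at 1.68, 0.91 and 0.77. Of 9 haematopoietic and macrophage markers 5, Ptprc and Adgre1 included, were above background on none, and Itgam, Csf1r and Cd68 were above it on all 4. The summed signal of that list was 10812 on the control, 10180 and 8940 on hairpins 1 and 2 and 6474 on hairpin 3, most of it from Itgam (8880, 8743, 7547 and 4960). The median difference of its 4 tested genes was -0.50, -0.60 and -0.33, and Cd68 and Cd74 were higher on hairpin 3 than on hairpins 1 and 2.

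Below, signals are Feature Extraction's processed signals in arbitrary units, and differences are log2 of the signal, minus that array's 75th percentile, on an Islr hairpin minus the control. A gene with several probes is represented by the brightest. The 28 Serpin genes above background on the control or on all 3 hairpin arrays were tested with the 13565 genes that met this rule, by limma with Benjamini-Hochberg adjustment. In this fit the control is 1 array that is assumed to vary like the 3 hairpins. In cultured cells measured in bulk, a lower signal from fewer cells of a type and one from less RNA per cell cannot be told apart.

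No Serpin gene passed limma's adjusted threshold of 0.05 in either direction, where 0% of all genes tested were called higher and 0.346% lower. At an unadjusted p under 0.05, limma counted 3 Serpin genes as higher (Serpinb6b and Serpinb9 among them) and 2 as lower (Serpina10 and Serpini1), beside 1.52% and 3.31% of all genes. Among the 28, 13 were higher than the control on all 3 hairpins and 6 lower on all 3, beside 27.6% and 24.6% of all genes. The 13 include Serpinb9f, which met the rule for testing through its hairpins alone, and entry on that side favours a higher value. The 6 include Serpina1f, which met it through the control and was not above background on hairpins 1 and 2. Entry through the control favours a lower value, in the shares of all genes as well. Of the 26 Serpin genes above background on all 4 arrays, 12 were higher on all 3 hairpins and 5 lower. The matching shares of all genes above background on all 4 arrays are not given here, so these counts have no baseline. Values at least 2-fold lower on all 3 hairpins were seen in Serpina10 (1.69% of all genes). As measured, Serpinb9f was the 1 gene at least 2-fold higher on all 3 (0.236% of all genes). Its control signal was not above background, and against the lowest signal called there hairpin 2 was only at least 1.22-fold higher, so the 2-fold rule is not met on that bound.

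The 3 Islr hairpins did not give the same picture of the family. Hairpin 3 was the highest of the 4 arrays in 18 of the 28 Serpin genes (34% of all genes tested). It was at least 2-fold above the control in 16 of the 28 Serpin genes (3.17% of all genes tested), hairpin 1 in 2 (1.46%) and hairpin 2 in 3 (1.88%). Serpinb9f is counted in each, and over the 26 genes above background on all 4 arrays the counts were 15, 1 and 2. The shares of all genes under that filter are not given here for these counts. At least 2-fold lower values were seen in 2 Serpin genes on hairpin 1 (4% of all genes), 2 on hairpin 2 (4.1%) and 1 on hairpin 3 (5.45%). The Serpin genes had median differences of 0.21, 0.17 and 1.15 on hairpins 1 to 3, where the medians of all genes tested were -0.01, 0.00 and 0.05. These 3 comparisons share the control array, and with 1 array on each side none has a test.

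**Figure D1:**
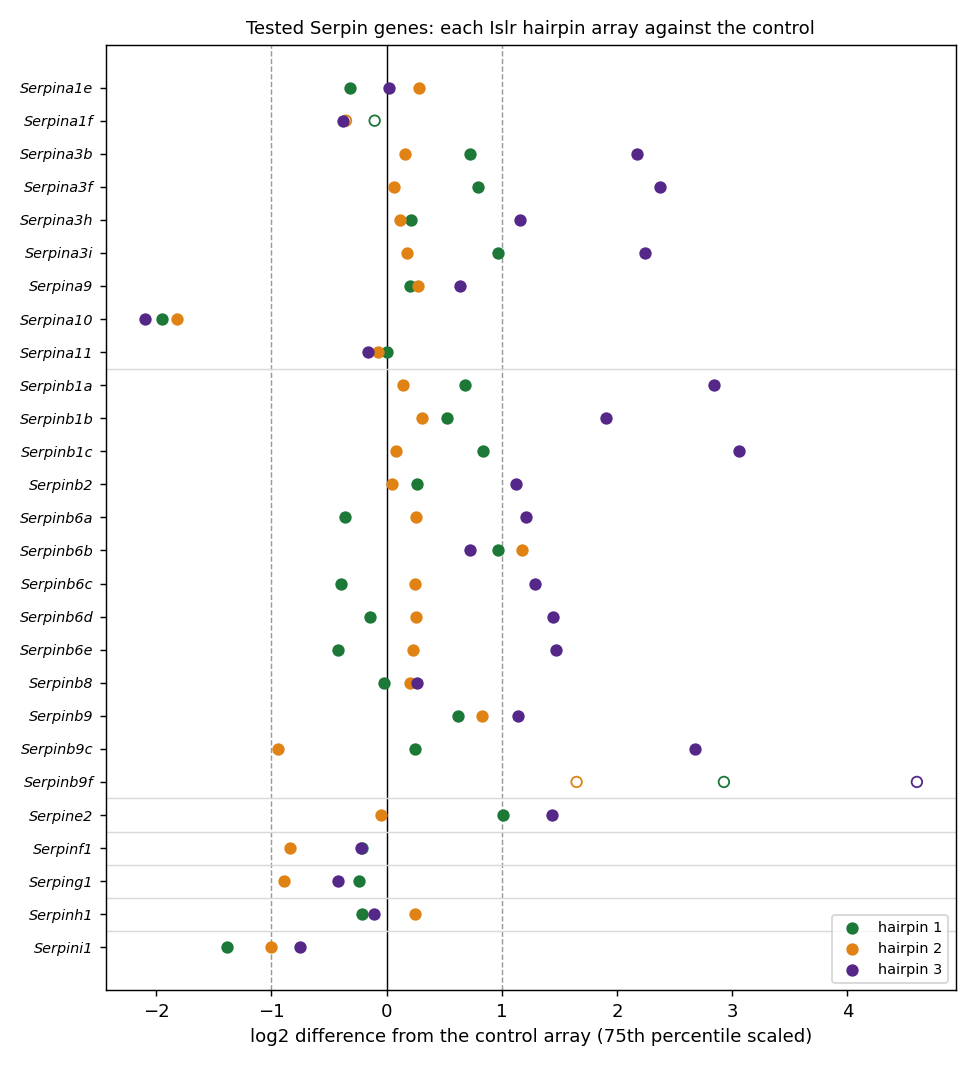
Log2 difference of each Islr hairpin array (coloured points) from the control array for 27 of the Serpin genes tested, with lines between clades a, b, e, f, g, h and i dashed lines at a 2-fold difference and hollow points where the control or that hairpin was not well above background. Hairpin 3 lies to the right of the other 2 hairpins in most genes of the Serpina3, Serpinb1, Serpinb6 and Serpinb9 groups, while Serpina10 and Serpini1 lie to the left of 0 on all 3.

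Among the secreted serpins of clade a, 9 genes of the 23 with a probe were tested, with median differences of 0.20, 0.12 and 0.63 on hairpins 1 to 3. Serpina10, the inhibitor of activated factor X that works with protein Z, read 126 on the control array, against 30.4, 35.1 and 28.7 on hairpins 1 to 3. The hairpins lay close together and well below the control. Their signals were not far above the lowest called on those arrays (20.8, 19.1 and 15), which limits what their closeness can show. The mean difference was -1.96 ± 0.14 (SD, n = 3 hairpins), a 3.88-fold lower signal with a limma adjusted p of 0.0791. With a normexp background correction and quantile normalization the difference was -0.78 (limma adjusted p = 0.670). The difference was -1.96 again without a filter, with only genes above background on all 4 arrays, and with an intensity trend. The limma adjusted p was higher than 0.0791 in each, so its nearness to the threshold depended on the genes tested and the fit. A second Serpina10 probe was not above background on any array.

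The Serpina3 group holds the mouse relatives of human alpha-1-antichymotrypsin, secreted inhibitors of chymotrypsin-like and other serine proteases. Serpina3f had signals of 2870 on the control array, 4652 on hairpin 1, 2953 on hairpin 2 and 14589 on hairpin 3. Hairpin 3 was 5.19-fold above the control, hairpin 1 was 1.73-fold above it and hairpin 2 differed from it by 1.05-fold. Serpina3f's mean difference of 1.08 ± 1.18 (SD, n = 3 hairpins) was smaller than the spread over hairpins (limma adjusted p = 0.964).

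The same order of arrays was seen in the neighbouring Serpina3i and Serpina3b. Serpina3i had signals of 194, 354, 215 and 897 on the control and hairpins 1 to 3, and Serpina3b had 430, 666, 473 and 1898. In both, hairpin 3 was the highest, hairpin 1 came next and hairpin 2 lay close to the control. Serpina3h, annotated as a transcribed pseudogene, had 496, 538, 530 and 1081, a difference of 1.15 on hairpin 3. The second probes of Serpina3f and Serpina3i gave 2.27 and 1.98 on hairpin 3, beside 2.38 and 2.24 from the probes used.

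Serpina3n, a secreted inhibitor made by many stromal and glial cells, was above background on hairpin 3 alone. Its signal was 131 there, at least 6.92-fold above the control, and 4.23, 22.4 and 5.05 on the control and hairpins 1 and 2. It was therefore not among the genes tested.

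The promoters of these genes, 250 bases before to 50 after the annotated start, are printed to show how far the members of the group that was highest on hairpin 3 share sequence (RefSeq, build GRCm38.p6, all on the plus strand of chromosome 12). Capitals mark matches on either strand to 4 motifs searched for: TATAAA, the STAT motif TTCNNNGAA, the AP-1 motif TGANTCA and the NF-kB motif GGGRNNYYCC. In these N is any base, R is A or G and Y is C or T. Serpina3f lies at chr12:104214294-104214593, Serpina3i at chr12:104262872-104263171 and Serpina3n at chr12:104406458-104406757.
Serpina3f: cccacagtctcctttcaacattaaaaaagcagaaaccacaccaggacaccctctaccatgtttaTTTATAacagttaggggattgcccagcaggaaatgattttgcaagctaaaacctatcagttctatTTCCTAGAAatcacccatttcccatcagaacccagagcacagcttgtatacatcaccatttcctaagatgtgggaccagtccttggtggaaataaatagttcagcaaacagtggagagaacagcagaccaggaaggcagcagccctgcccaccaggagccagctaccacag
Serpina3i: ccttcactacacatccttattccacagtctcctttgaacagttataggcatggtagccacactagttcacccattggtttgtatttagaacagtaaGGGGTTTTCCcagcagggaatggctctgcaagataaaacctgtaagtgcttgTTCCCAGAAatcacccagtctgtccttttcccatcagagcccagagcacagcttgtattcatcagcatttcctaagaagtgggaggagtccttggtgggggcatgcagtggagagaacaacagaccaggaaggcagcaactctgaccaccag
Serpina3n: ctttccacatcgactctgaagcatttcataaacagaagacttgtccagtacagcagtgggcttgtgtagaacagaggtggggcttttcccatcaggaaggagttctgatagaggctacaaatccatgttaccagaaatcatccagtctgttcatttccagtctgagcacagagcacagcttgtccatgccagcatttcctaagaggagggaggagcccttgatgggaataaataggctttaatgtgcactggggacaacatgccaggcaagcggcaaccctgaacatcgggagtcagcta
Serpina3f and Serpina3i were 74.0% identical over these bases, Serpina3i and Serpina3n 66.0%, and Serpina3f and Serpina3n 62.7%. A STAT match stood in Serpina3f and Serpina3i, a TATAAA match in Serpina3f (on the other strand, printed as TTTATA) and a match to the NF-kB motif in Serpina3i. The TATAAA match began at -186 from the annotated start. A second promoter entry of Serpina3f, not printed, held the STAT match but no TATAAA match. Serpina3n held no match to the 4 motifs. Promoter entries were found for 54 of the Serpin genes (63 promoters). Of these promoters 17.5% held the STAT motif, 28.6% TATAAA, 19.0% the AP-1 motif and 4.76% the NF-kB motif, beside 8.30%, 13.6%, 7.81% and 8.46% of all 32851 promoters. The motifs can overlap and were counted separately. A match is a match of letters only, and duplicated promoters are not independent of each other.

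The other clade a genes tested differed less between arrays. Serpina9, known from germinal centre B cells, had signals of 341, 368, 406 and 518 on the control and hairpins 1 to 3, with hairpin 3 the highest (0.63). Serpina11 had 103, 96.6, 96.3 and 90.2, all within 1.12-fold of the control. Serpina1e, an alpha-1-antitrypsin gene, had 28.7, 21.7, 34.4 and 28.5, near the lowest signals called above background (15 to 20.8 by array), and its hairpins lay on both sides of the control. A second Serpina1e probe was above background on hairpin 1 alone (66.7). Serpina1f had 28.4, 24.8, 21.9 and 21.4 and was not above background on hairpins 1 and 2.

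Serpina6, which encodes corticosteroid-binding globulin, was read by 1 probe on hairpin 3 alone (128, at least 6.78-fold above the control), and its other probe was above background on no array. Serpina1d was likewise above background on hairpin 3 alone, at 50.6 with 1 of its probes, at least 2.68-fold above the control. The remaining 11 clade a genes with a probe were above background on no array: Serpina1a, Serpina1c, Serpina3a, Serpina3c, Serpina3j, Serpina3k, Serpina3m, Serpina4-ps1, Serpina5, Serpina7 and Serpina12.

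Among the intracellular serpins of clade b, 13 of the 27 genes with a probe were tested, with median differences of 0.26, 0.24 and 1.45 on hairpins 1 to 3. Of the 13, 7 were higher on all 3 hairpins (27.6% of all genes) and 0 lower on all 3 (24.6%). The 7 include Serpinb9f, which met the rule for testing through its hairpins alone. The Serpinb1 group, which holds inhibitors of neutrophil-type elastases and cathepsin G, showed the array order of the Serpina3 genes. Serpinb1a had signals of 2884 on the control, 4328 on hairpin 1, 3134 on hairpin 2 and 20228 on hairpin 3. Hairpin 3 was 7.16-fold above the control and 4.47-fold above the next highest array on the scaled values. The mean over hairpins was 1.22 ± 1.43 (SD, n = 3; limma adjusted p = 0.964), and without hairpin 3 it was 0.41.

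Serpinb1c had signals of 55.1, 92.5, 57.4 and 449 on the control and hairpins 1 to 3, and Serpinb1b had 26.6, 35.7, 32.4 and 97.4. Hairpin 3 was 8.31-fold above the control in Serpinb1c and 3.74-fold in Serpinb1b. All 3 Serpinb1 genes ran from the control over hairpin 2 and hairpin 1 to hairpin 3.

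The Serpinb6 group, whose best known member Serpinb6a blocks cathepsin G and other proteases that reach the cytosol, was highest on hairpin 3 in 4 of its 5 genes. Serpinb6a had signals of 30989, 22662, 36445 and 70402 on the control and hairpins 1 to 3, with hairpin 1 below the control (-0.36), hairpin 2 a little above it (0.26) and hairpin 3 well above (1.21). Serpinb6c had 24207, 17203, 28183 and 57939, Serpinb6d 538, 456, 632 and 1436, and Serpinb6e 122, 85.1, 140 and 330. In all 4 the order was hairpin 1, control, hairpin 2 and hairpin 3 from low to high. This order differed from that of the Serpina3 and Serpinb1 genes, in which hairpin 1 was above the control and above hairpin 2. Without hairpin 3, the mean differences of Serpinb6a, Serpinb6c and Serpinb6e were -0.05, -0.08 and -0.10.

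Serpinb6b had another pattern from its paralogs. Its signals were 91.3 on the control array, against 167, 202 and 148 on hairpins 1 to 3. Every hairpin was above the control, hairpin 3 by the least. The mean difference was 0.95 ± 0.22 (SD, n = 3 hairpins; limma adjusted p = 0.757), a 1.94-fold higher signal.

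**Figure D2:**
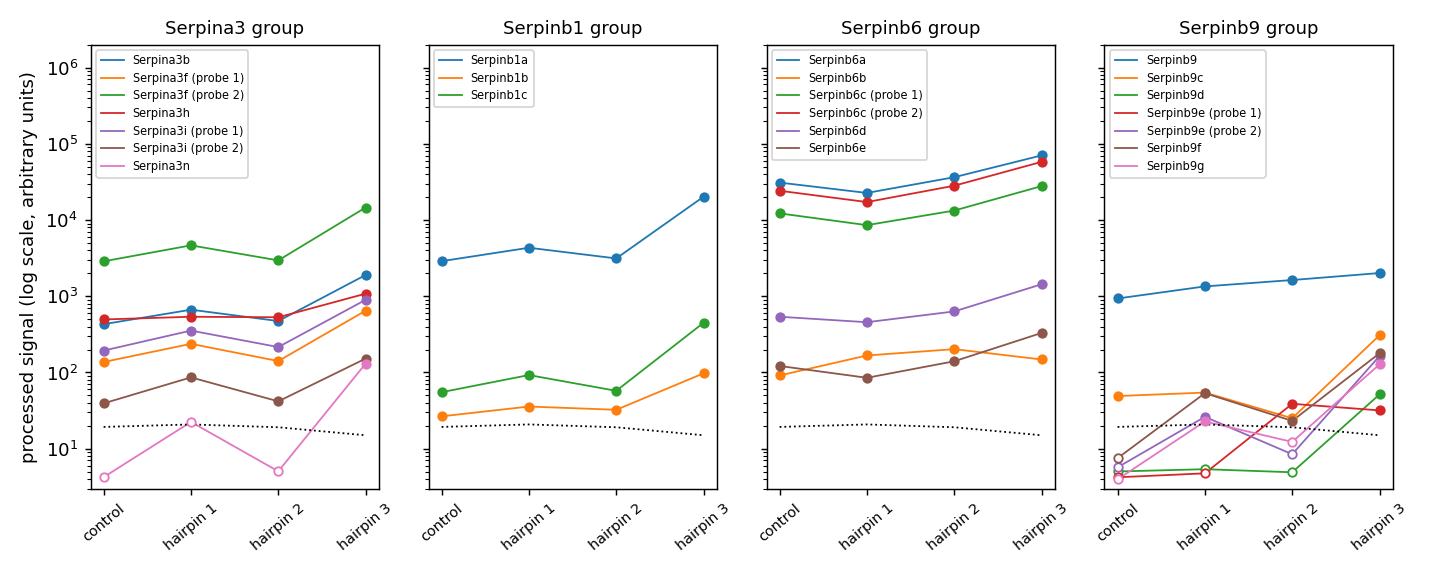
Processed signal (log axis, arbitrary units) on the 4 arrays of each probe of the Serpina3, Serpinb1, Serpinb6 and Serpinb9 groups that was above background on at least 1 array (filled points well above background, hollow points not), where the dotted line joins the lowest signals called above background on each array. Each line is read along its own arrays: among the probes above background on all 4 only that of Serpinb6b is not highest on hairpin 3. Serpina3n and Serpinb9d are above background on hairpin 3 alone, with hollow points on the other arrays.

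The Serpinb6a promoter is shown because it holds 2 STAT matches, in capitals (chr13:34002745-34003044, minus strand, GRCm38.p6, RefSeq).
Serpinb6a: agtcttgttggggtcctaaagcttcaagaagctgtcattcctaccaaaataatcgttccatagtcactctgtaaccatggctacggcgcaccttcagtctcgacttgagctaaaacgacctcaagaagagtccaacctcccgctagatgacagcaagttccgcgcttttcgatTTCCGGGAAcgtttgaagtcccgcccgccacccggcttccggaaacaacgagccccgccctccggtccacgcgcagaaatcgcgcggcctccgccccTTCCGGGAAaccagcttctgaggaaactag
Serpinb6a and Serpinb6c were 42.0% identical over their 300 promoter bases, and the pairs within the Serpinb6 group ranged from 36.7% to 69.7%. The 69.7% pair was Serpinb6d and Serpinb6e, which share the array order, and the range includes pairs with Serpinb6b, which lacks it. The promoters of Serpinb6c, Serpinb6d and Serpinb6e, which share the array order of Serpinb6a, held no STAT match. The identity of unrelated promoters was not measured, and a link between promoter sequence and array order was not tested.

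The Serpinb9 group holds Serpinb9, which protects cells from granzyme B, and its rodent duplicates. Serpinb9 had signals of 934 on the control array, against 1346, 1632 and 2015 on hairpins 1 to 3. All 3 hairpins lay above the control, by 0.62, 0.83 and 1.14. The mean difference was 0.86 ± 0.26 (SD, n = 3 hairpins; limma adjusted p = 0.952), or 1.82-fold.

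The duplicates of Serpinb9 were dim and were read mainly on hairpin 3. Serpinb9f was not above background on the control (signal 7.51) and had 53.5, 23.2 and 179 on hairpins 1 to 3, which were at least 2.96-fold, at least 1.22-fold and at least 9.46-fold above the control. Serpinb9g was read on hairpins 1 and 3, at 22.8 and 128, at least 1.26-fold (hairpin 1) and at least 6.77-fold (hairpin 3) above the control. Serpinb9d was read on hairpin 3 alone, at 51.5, at least 2.73-fold above the control.

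Serpinb9e was measured by a pair of probes that disagreed. The first gave 5.69, 26.2, 8.45 and 164 on the control and hairpins 1 to 3, and was at least 8.69-fold above the control on hairpin 3. The other gave 4.21, 4.75, 38.8 and 31.8 and was above background on hairpins 2 and 3. Serpinb9c had 49.1, 54.5, 25.1 and 308, highest on hairpin 3 (2.68) and lowest on hairpin 2 (-0.94). Its mean of 0.66 ± 1.85 (SD, n = 3 hairpins) turned to -0.35 without hairpin 3, and its second probe was above background on no array.

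The promoters of Serpinb9f, Serpinb9e and Serpinb9g are shown because they are near copies of each other. They lie on the plus strand at chr13:33323827-33324126, chr13:33249358-33249657 and chr13:33484540-33484839 (GRCm38.p6, RefSeq). Capitals in Serpinb9e and Serpinb9g mark the bases that differ from Serpinb9f where the aligned sequences overlap.
Serpinb9f: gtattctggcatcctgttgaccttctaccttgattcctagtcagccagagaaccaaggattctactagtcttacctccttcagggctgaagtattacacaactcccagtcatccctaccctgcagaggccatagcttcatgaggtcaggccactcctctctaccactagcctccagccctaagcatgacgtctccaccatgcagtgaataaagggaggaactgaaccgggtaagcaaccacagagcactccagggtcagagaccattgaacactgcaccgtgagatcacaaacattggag
Serpinb9e: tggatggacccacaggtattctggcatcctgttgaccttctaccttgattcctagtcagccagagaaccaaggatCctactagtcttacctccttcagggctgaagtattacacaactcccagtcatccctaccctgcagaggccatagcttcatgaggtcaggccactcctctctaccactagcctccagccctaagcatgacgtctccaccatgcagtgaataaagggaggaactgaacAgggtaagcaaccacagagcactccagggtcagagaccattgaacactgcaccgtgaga
Serpinb9g: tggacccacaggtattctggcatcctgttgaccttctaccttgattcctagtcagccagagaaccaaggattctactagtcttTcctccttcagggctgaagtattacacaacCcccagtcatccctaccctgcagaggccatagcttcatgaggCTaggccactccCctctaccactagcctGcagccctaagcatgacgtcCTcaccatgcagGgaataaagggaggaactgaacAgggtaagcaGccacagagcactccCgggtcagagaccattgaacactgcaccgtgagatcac
Serpinb9e differed from Serpinb9f at 2 of 285 overlapping bases and Serpinb9g at 12 of 289. None of the 3 held a match to the 4 motifs. The sequences of the array's probes were not used here, so cross-hybridisation between genes as alike as these was not tested. The values of the Serpina3, Serpinb1, Serpinb6 and Serpinb9 genes are uncertain as values of single genes, and a group may hold fewer independent measurements than genes.

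Outside these groups, Serpinb8, an inhibitor of the furin protease, had signals of 7426, 6845, 8422 and 8711 on the control and hairpins 1 to 3, within 1.20-fold of the control on the scaled values. Serpinb2, the gene of plasminogen activator inhibitor-2, had 30.0, 33.7, 30.4 and 63.9, with hairpin 3 at 1.12 and the others near the control. Serpinb7 was above background on hairpin 3 alone, at 21.4, only at least 1.13-fold above the control. The remaining 10 clade b genes with a probe were above background on no array: Serpinb3a, Serpinb3b, Serpinb3c, Serpinb3d, Serpinb5, Serpinb9b, Serpinb10, Serpinb11, Serpinb12 and Serpinb13. The Serpinb3c probe was printed 10 times, and 4, 0, 2 and 5 of its spots were called above background on the control and hairpins 1 to 3.

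A count of genes at least 2-fold higher on 1 array than on each of the other 3 described the pattern of hairpin 3, and it was chosen after the values were seen. It gave 11 of 28 Serpin genes for hairpin 3 (1.09% of all genes tested), 0 for hairpin 1 (0.369%) and 0 for hairpin 2 (0.405%). Among the genes above background on all 4 arrays it gave 10 of 26 for hairpin 3 (0.967%). The 11 genes were 3 of the 4 tested Serpina3 genes, all 3 Serpinb1 genes, 3 of 5 Serpinb6 genes and 2 of 3 Serpinb9 genes. Just inside the threshold lay Serpinb6d and Serpinb6c, at 1.19 and 1.05 above the next highest array, and just outside lay Serpinb6a and Serpina3h, at 0.96 and 0.94. When each of the 16 sets of Serpin paralogs was represented by its brightest member, the count was 2 of 16, Serpina3f and Serpinb1a.

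**Figure D3:**
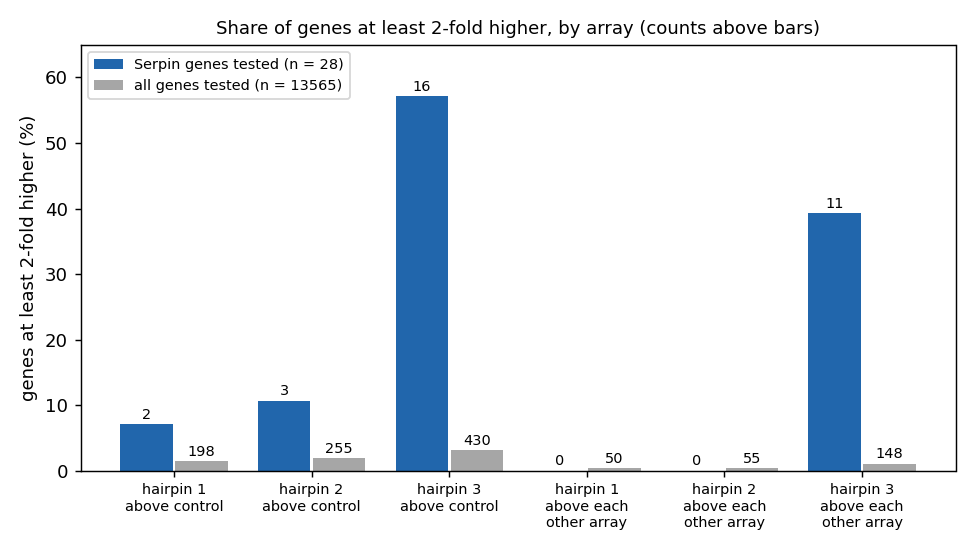
Share of genes (%) at least 2-fold higher on a hairpin array than on the control, and than on each of the other arrays, for the 28 Serpin genes (blue) and all 13565 genes tested (grey), with counts above the bars. The blue bar stands far above the grey for hairpin 3, with 16 and 11 genes, and low for hairpins 1 and 2.

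Hairpin 3 was at least 2-fold above the control in 14 of the 15 tested genes of these 4 groups and in 2 of the 13 other Serpin genes, Serpinb2 and Serpine2, beside 3.17% of all genes. The 14 include Serpinb9f, which met the rule for testing through its hairpins alone. The 4 groups were singled out by the hairpin 3 count itself, so this split is a description. In 7 of the 11 genes the order from high to low was hairpin 3, hairpin 1, hairpin 2 and control. The summed signals of the haematopoietic and macrophage markers, through Itgam, and of the MSC markers were lowest on hairpin 3. The median difference of the MSC markers was 0.06, 0.02 and 0.24 on hairpins 1 to 3, highest on hairpin 3, unlike their sum. The share of features above background was also highest on hairpin 3. The part of these in the hairpin 3 values was not tested.

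The Serpinb1, Serpinb6 and Serpinb9 genes lie together on chromosome 13, so the genes on either side were examined in RefSeq order. Of the 11 tested Serpin genes there, 8 were at least 2-fold higher on hairpin 3 than on each other array, with median differences of 0.52, 0.25 and 1.47 on hairpins 1 to 3. The 8 include Serpinb9f, which was tested through its hairpins alone. Of the nearest 10 protein-coding genes on each side 14 were tested, 0 had hairpin 3 at least 2-fold above each other array (1.09% of all genes), and their median on hairpin 3 was 0.27. Hairpin 3 was at least 2-fold above the control in 3 of the 14 (3.17% of all genes). Foxf2, a forkhead factor gene of mesenchymal cells, was at 2.00, 0.37 and 2.82 on hairpins 1 to 3, relative to the control. Dusp22 and Pxdc1 were the other neighbours past 2-fold, at 1.15 and 1.90 on hairpin 3. On chromosome 12 the count was 3 of 9 Serpin genes and 0 of 13 neighbours, whose median on hairpin 3 was -0.11.

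**Figure D4:**
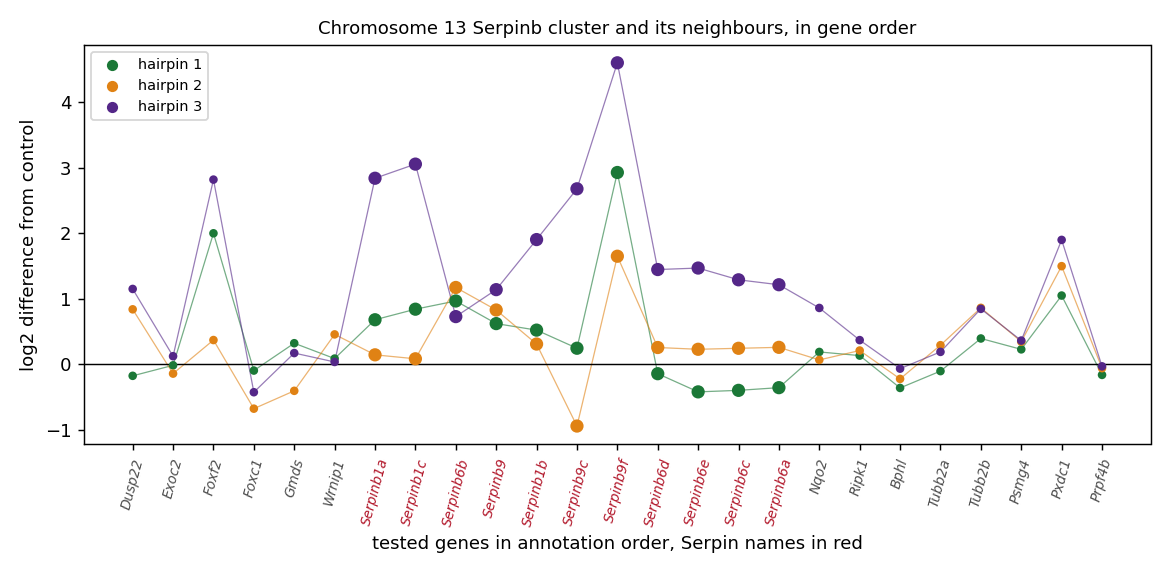
Log2 difference from the control array of the tested genes of the chromosome 13 Serpinb cluster (names in red, large points) and of its neighbours (small points) in annotation order, 1 line per hairpin. Hairpin 3 lies above the other hairpins over 10 of the 11 Serpin genes, Serpinb6b being the exception, and among the neighbours only Foxf2, Pxdc1 and Dusp22 reach a 2-fold difference on hairpin 3.

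In clade e, Serpine2, the gene of protease nexin-1, which blocks thrombin and urokinase at the cell surface, had signals of 1207, 2272, 1146 and 3202 on the control and hairpins 1 to 3. Hairpins 1 and 3 lay above the control (1.01 and 1.44) and hairpin 2 at its level (-0.05).

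Clades f, g and h each gave 1 tested gene, and none of them showed the hairpin 3 pattern. Serpinf1, the gene of pigment epithelium-derived factor, which does not block proteases, had signals of 23622, 19085, 13019 and 19888 on the control and hairpins 1 to 3. Its differences were -0.21, -0.84 and -0.22, and a second probe gave -0.04, -0.85 and -0.14. Serping1, the gene of C1 inhibitor, which holds the first complement proteases in check, had 1194, 948, 632 and 875. Both genes were lowest on hairpin 2, where Serping1 was at -0.89 and its second probe at -0.61.

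Serpinh1, which encodes Hsp47, the procollagen chaperone of the endoplasmic reticulum, had signals of 41180, 33356, 48181 and 37482 on the control and hairpins 1 to 3. The hairpins lay on both sides of the control, at -0.21, 0.25 and -0.11. The unadjusted limma interval of the mean ran from -0.71 to 0.67 at 95%.

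Serpini1, the gene of neuroserpin, a secreted inhibitor of tissue-type plasminogen activator, read 76.9 on the control, against 27.6, 37.7 and 44.8 on hairpins 1 to 3. The hairpins were all below the control, as in 24.6% of all genes. The mean difference was -1.05 ± 0.32 (SD, n = 3 hairpins; limma adjusted p = 0.881), and -0.49 with the normexp correction. A second probe was above background on hairpin 3 alone, at 25.4 beside 17.7 on the control, or at least 1.34-fold higher. Serpinc1, the antithrombin gene, was above background on hairpin 3 alone, at 19.7, only at least 1.04-fold above the control. Serpind1, Serpinf2 and Serpini2 were above background on no array.

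The proteases that serpins block were described from a list of 45 genes, of which 25 were tested. None passed limma's threshold. Values above the control on all 3 hairpins were seen in 1 of them (27.6% of all genes) and values below it in 8 (24.6%). The median differences were -0.07, -0.17 and -0.21 on hairpins 1 to 3. Plat, the gene of tissue-type plasminogen activator and a target of Serpini1, had signals of 4109 on the control and 2585, 2528 and 2509 on the hairpins, a mean of -0.64 ± 0.06 (SD, n = 3; limma adjusted p = 0.866). The 3 hairpins were nearly level with each other, below the control.

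The other members named, apart from Plau, were those with the largest smallest difference in 1 direction. The lysosomal protease gene Ctsl was at -0.53 ± 0.15 (SD, n = 3 hairpins, as below), the complement protease gene C1s1, whose product Serping1 blocks, at -0.61 ± 0.41, the granzyme gene Gzmk at -0.43 ± 0.29 and the apoptosis protease gene Casp8 at 0.19 ± 0.08. Prtn3, the gene of proteinase 3, was not above background on hairpin 2 and had 44.6, 31.0 and 20.9 on the control and hairpins 1 and 3. The list had 17 members that were above background on no array. Plau, the gene of urokinase, which Serpine2 can block, was named after its values were seen, and was at 0.81, 0.19 and -0.84 on hairpins 1 to 3.

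Of 29 receptors and cofactors that bind serpins or their complexes 24 were tested, none passed, 6 were higher (27.6% of all genes) and 4 lower (24.6%) on all 3 hairpins, and the medians were 0.08, -0.01 and 0.04. Plxdc1, a receptor of pigment epithelium-derived factor, had signals of 232 on the control and 67.9, 59.4 and 24.1 on hairpins 1 to 3. All 3 hairpins lay below the control, at a mean of -2.29 ± 0.83 (limma adjusted p = 0.886). Plaur, the urokinase receptor gene, had 1388, 1716, 3177 and 2686 and a mean of 0.87 ± 0.42 with hairpin 2 the highest. The tissue factor gene F3 was at 0.36 ± 0.11, the lipoprotein receptor gene Lrp8 at 0.41 ± 0.37, Pnpla2, another receptor of pigment epithelium-derived factor, at 0.45 ± 0.41 and the angiotensinogen gene Agt, itself of the serpin fold, at 0.24 ± 0.08.

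The list of collagens that Serpinh1 binds and of its partners in collagen folding held 32 genes, all tested. Besides collagens and enzymes that modify or fold them, it held other genes, among them Kdelr1, Mia3, Sec23a, Tmem38b and Creb3l1. None passed, 5 were higher (27.6% of all genes) and 10 lower (24.6%) on all 3 hairpins, and the medians were -0.11, -0.03 and 0.01. Col3a1 had signals of 40298 on the control and 20147, 22493 and 7920 on hairpins 1 to 3, a mean of -1.35 ± 0.84, and the lysyl hydroxylase gene Plod2 had 2639, 1295, 1306 and 662, a mean of -1.30 ± 0.58. Both were lowest on hairpin 3, where Serpinh1 was at -0.11. Col6a1 was at -0.50 ± 0.12, Col6a2 at -0.53 ± 0.21, the prolyl hydroxylase gene P4ha2 at 0.57 ± 0.13 and Plod3 at 0.37 ± 0.09. The limma adjusted p of each was 0.964.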

How the data were processed

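The deposited values used were each feature's processed signal intensity (linear, background-subtracted), from Agilent Feature Extraction 11.5.1.1 with protocol GE1_1105_Oct12, per the file headers (array design 028005, build mm9). All 4 arrays lay on 1 slide. Control spots were left out. Probes were named through RefSeq accessions (28026 of 55681 probes). A probe counted as above background where more than 0.5 of its spots did. Log2 signals were scaled to each array's 75th percentile (414.7 to 442.5), and limma 3.58.1 in R 4.3.3 (lmFit, eBayes, 2 residual degrees of freedom) compared 3 hairpins with 1 control. The number of arrays limits the precision. Probes printed 10 times had a median SD of 0.0627 to 0.0677 (log2). In the paragraphs on the lists, ± is the SD over 3 hairpins. "At least" folds set the brighter side against the higher of the lowest called signal on the dim array and the probe's own. The members and lists were chosen with earlier results of these data known. Islr was named first, then every Serpin gene above background (1 counted gene is not reported here), then up to 6 members per list by their smallest difference in 1 direction. In data simulated on 13565 genes, limma called 0 of 50 genes changed by 1 on the log2 scale, 19 of 50 by 2 and 38 of 50 by 4. The deposited series table held the same intensity times 1 factor per array (2.02 to 2.25), chosen in a way not given in the sources used here. Alternatives were quantile normalization, median centring, normexp with offset 50, other filters, the mean over probes, outlier spots left out, an intensity trend and leaving out each hairpin.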

Additional observations from a re-analysis of the deposited data

How the results depend on the processing

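No Serpin gene passed limma's adjusted threshold under any alternative run, and the smallest adjusted p was 0.0648 (Serpina10, whose difference ranged from -2.03 to -0.78). Among all genes limma called 47 lower, 75 with quantile normalization, and 0 with normexp, without a filter, with the filter on all 4 arrays, with an intensity trend and without any 1 hairpin (0 to 0); none was called higher in any. Serpin genes at least 2-fold higher on all 3 hairpins (1 of 28) were 0 with normexp and 2 of 60 without a filter. They were 0 of 26 with the filter on all 4 arrays and 0 of 16 with 1 gene per paralog group. Without 1 hairpin they were 1 to 2 of 28 (2 without hairpin 2). Those at least 2-fold lower on all 3 (1) were 0 with normexp and 1 to 2 without 1 hairpin (2 without hairpin 3). Those higher on all 3 (13 of 28) were 21 of 60 without a filter and 6 of 16 with 1 gene per paralog group. Without 1 hairpin they were 13 to 19 of 28. Those lower on all 3 (6 of 28) were 10 of 60 without a filter and 6 to 7 of 28 without 1 hairpin. The shares of all genes for these counts under the alternatives are not given here. The count with hairpin 3 at least 2-fold above each other array (11) was 18 of 60 without a filter (2.47% of all genes), 2 with 1 gene per paralog group and 12 to 14 without 1 of the other hairpins; over all genes it was 148 (1.09%), 88 (0.649%) with normexp, 523 without a filter and 227 to 231 (1.67% to 1.70%) without 1 hairpin. The Serpin median of 0.49 ranged from 0.12 to 0.75 without 1 hairpin, the lowest without hairpin 3, and was 0.14 without a filter and 0.26 with 1 gene per paralog group. Signs turned in Serpina1e (0.0146 with quantile normalization, 0.00564 with normexp, and -0.148 to 0.15 without 1 hairpin) and, by the hairpin left out, in Serpinh1 (-0.158 to 0.0719), Serpinb6a (-0.0504 to 0.735), Serpinb6c (-0.0783 to 0.766), Serpinb6e (-0.10 to 0.848) and Serpinb9c (-0.35 to 1.46); 325 of 334 alternative gene values kept direction and side of the threshold. The counts by paralog group and of hairpin 3 above each other array were chosen after seeing the data, and the cause of these shifts was not tested. No paired analysis was possible because the control group is 1 array, and a block for slide did not apply to 1 slide. Signals near the lowest called, as in Serpina1e, the Serpinb9 duplicates and Serpina10 on the hairpins, limit what can be read of dim members.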
